A study of Mus musculus with 6 samples.

Results

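The nuclear genes of the mitochondrial respiratory chain were compared between cultured mouse microglia with and without a Cre recombinase that removes part of Nr1d1, the gene of the nuclear receptor and clock repressor REV-ERBα. The genes were taken by symbol from the protein-coding genes of the GRCm38 annotation: those starting with Nduf, Sdha, Sdhb, Sdhc, Sdhd, Uqcr, Cox4i, Cox5, Cox6, Cox7, Cox8 or Atp5, together with Cyc1 and Cycs. They numbered 100 of 55487 genes in the files. There were 38 complex I subunits, 8 complex I assembly factors whose symbols share the Nduf prefix, 4 complex II subunits with 4 assembly factors, 9 complex III subunits, cytochrome c, 18 complex IV genes and 18 complex V genes. The 6 libraries came from 6 cultures of cortical microglia, 3 Cre− and 3 Cre+, from CAG::CreERT2; Nr1d1 fl/fl pups at postnatal days 1 to 3. The floxed Nr1d1 alleles and the drug were shared. Every culture received 4-hydroxytamoxifen (4-OHT) at 1.5 μM, for 2 days by the labels and by the study's results on these cultures. The general methods of the study give a shorter exposure for cultures of this line. CreERT2 acts only once 4-OHT is bound, and CAG is a promoter that is active in most cell types, so that Cre was not limited to microglia in the pups. Whether each culture came from a separate pup is not stated in the labels, and the p-values measure the spread between these cultures.

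The respiratory chain sits in the inner mitochondrial membrane. Complexes I and II take electrons from NADH and succinate and pass them through ubiquinone to complex III, cytochrome c and complex IV, which reduces oxygen. Complexes I, III and IV pump protons, and complex V, the ATP synthase, uses the resulting gradient to make ATP. Most subunits are encoded in the nucleus, and a core set is encoded by mitochondrial DNA, so that both genomes contribute to complexes I, III, IV and V. In macrophages and microglia, the balance between oxidative phosphorylation and glycolysis is known to shift with activation.

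Counts on genes ran from 87545868 to 93942161 in the Cre− and from 93701215 to 110909129 in the Cre+ libraries. Levels in CPM, counts scaled to a library of 1000000, are given relative to library sizes after removal of ribosomal RNA genes and TMM normalization, with factors of 0.986 to 1.01. The test was edgeR's quasi-likelihood test over the 11429 genes that exceeded 1 CPM in 4 or more libraries, and their p-values were adjusted by the Benjamini-Hochberg method. Nr1d1 itself was read at 2.35, 1.20 and 1.64 CPM in Cre− and 1.00, 0.945 and 1.08 CPM in Cre+ replicates 1 to 3. The groups did not overlap, but the difference missed the threshold of 0.05 (log2 fold change −0.77 ± 0.25 SE, edgeR, adjusted p = 0.0945). This count covers the whole gene, of which Cre removes only a part, so reads on the remaining exons are still counted. For microglia of another Cre line, Cx3cr1::CreERT2, the study reported deletion of the floxed exons and loss of most of the transcript. Of 12 microglia markers 11 were tested, with a summed level of 9612 to 10054 CPM in Cre− and 9504 to 9819 CPM in Cre+ libraries; P2ry12 lay below the filter, and Itgam was called higher. The 8 neuron markers summed to 3.03 to 3.96 CPM in Cre− and 2.13 to 2.33 CPM in Cre+ libraries, and the 8 fibroblast and mural cell markers to 1.84 to 2.83 and 0.972 to 1.23 CPM. In both lists no gene passed the filter and none was at 0 in every library. The 8 astrocyte markers summed to 44.3 to 48.2 and 42.8 to 48.5 CPM, the 8 oligodendrocyte lineage markers to 37.3 to 44.9 and 39.9 to 41.004 CPM, and the 7 endothelial markers to 46.2 to 51.0 and 47.1 to 51.4 CPM. Of the tested genes in these 3 lists, 2, 2 and 3 in number, Flt1 alone was called, at a higher level in Cre+. Most of each sum came from 2 genes. These were Aldoc and Aldh1l1 (Cre− means 32.1 and 11.4 CPM), Mbp and Mag (28.5 and 10.5 CPM), and Vwf and Flt1 (26.8 and 20.1 CPM). Gfap, Aqp4, Sox10, Olig2, Cldn5 and Cdh5 were among the markers below the filter. The part of other cells in the values below was not tested. In bulk RNA, fewer cells of a type cannot be told apart from less RNA per cell.

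The respiratory chain genes were expressed at nearly the same level in the 2 groups. Of the 100 genes, 92 passed the filter, 0 were called higher in Cre+ and 1 was called lower. Among all tested genes 5.07% were called, 2.50% higher and 2.56% lower. The gene called lower was Cox7a2l. At an unadjusted p under 0.05, 5 of the 92 were higher and 10 lower, or 16.3% of them, against 19.1% of all tested genes. The Cre− and Cre+ ranges did not overlap for 8 genes with higher and 13 with lower values in Cre+, beside a background of 12.3% and 11.7% of tested genes.

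The median log2 fold change of the 92 genes was −0.00, with 46 above and 46 below 0, and that of all tested genes was 0.00. Only 2 of the 92 genes (2.17%), Cox6b2 and Cox7a2l, differed by more than 0.25 on the log2 scale, compared with 16.4% of all tested genes. The 95% interval of the fold change lay within 1.25-fold in either direction for 81 of the 92 genes. Their median standard error was 0.05 log2 units, against 0.10 for all tested genes. The counts of all 100 genes together came to 11697, 11890 and 12247 CPM in Cre− and 11751, 12149 and 11672 CPM in Cre+ replicates 1 to 3. These sums overlapped, and they made up 1.15% to 1.21% of the counts of a library.

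**Figure D1:**
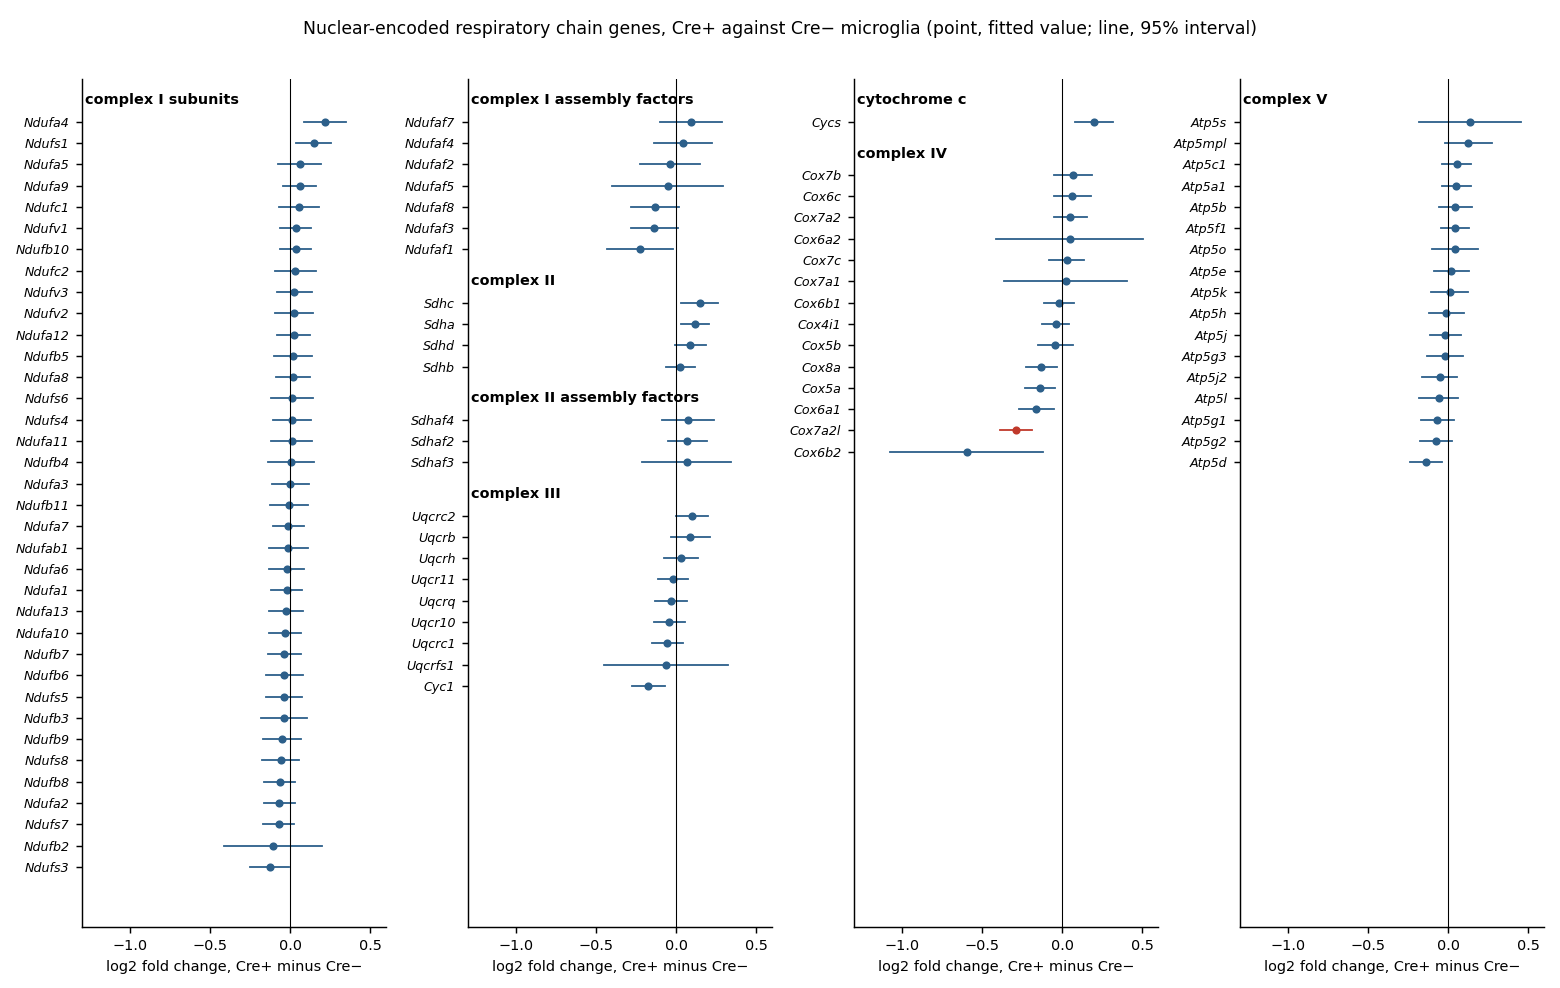
Log2 fold change of 91 of the 92 tested respiratory chain genes, Cre+ minus Cre−, grouped by complex (x axis, log2 units; points, fitted value; lines, 95% interval; red, adjusted p at most 0.05). The intervals of most genes span 0 and are narrow, and Cox7a2l in complex IV is the only gene drawn in red.

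Complex I, the entry point for electrons from NADH, showed no called gene among its 37 tested subunits. Their median log2 fold change was −0.00, and they ranged from −0.13 (Ndufs3) to 0.22 (Ndufa4), with 18 above and 19 below 0. For 35 of the 37 the 95% interval lay within 1.25-fold.

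Ndufa4, first described as a complex I subunit and since assigned to complex IV, is counted with complex I throughout, by its symbol. It was read at 78.2, 79.0 and 87.6 CPM in Cre− and 91.6, 102 and 90.6 CPM in Cre+ replicates 1 to 3. All 3 Cre+ cultures lay above all Cre− cultures. The log2 fold change was 0.22 ± 0.06 SE and missed the threshold (edgeR, adjusted p = 0.0578). Ndufs1, the iron-sulfur subunit that is the largest of the arm facing the matrix, was read at 66.7, 64.9 and 63.9 CPM in Cre− and 70.6, 71.4 and 74.4 CPM in Cre+ cultures. The groups did not overlap, with a log2 fold change of 0.15 ± 0.05 SE (edgeR, adjusted p = 0.132).

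In the opposite direction, Ndufs3, a core subunit of the matrix arm, had 78.8, 78.7 and 89.5 CPM in Cre− and 74.4, 75.5 and 76.1 CPM in Cre+ cultures. It did not overlap between the groups and was not called (edgeR, log2 fold change −0.13, adjusted p = 0.244). Without Cre− replicate 3, its highest culture, the log2 fold change was −0.07. Ndufv1, which holds the flavin that oxidises NADH, was closely matched, at 112, 115 and 112 CPM in Cre− and 114, 117 and 115 CPM in Cre+ cultures. Ndufa3, an accessory subunit, had a fitted log2 fold change of 0.00. Per kilobase of gene length, the highest mean levels in complex I were those of the small accessory subunits Ndufa2 (296 CPM per kb in Cre− and 283 in Cre+) and Ndufa1 (280 and 275), while Ndufb2 stood at 0.956 and 0.889.

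The complex I assembly factors with an Ndufaf symbol, which act during assembly and are not part of the finished enzyme, leaned to lower values in Cre+, and none of the 7 tested was called. Their median log2 fold change was −0.05, with 2 above and 5 below 0. Ndufaf1, which acts on the membrane arm, was read at 14.8, 13.6 and 15.96 CPM in Cre− and 12.6, 13.2 and 12.1 CPM in Cre+ cultures. Ndufaf3 had 28.1, 29.6 and 29.0 CPM in Cre− and 26.6, 25.2 and 27.1 CPM in Cre+ cultures. In Ndufaf1, Ndufaf3 and Ndufaf8 every Cre+ culture lay below every Cre− culture. The log2 fold changes were −0.23 ± 0.10 SE, −0.14 ± 0.07 SE and −0.13 ± 0.07 SE (edgeR, adjusted p = 0.207, 0.300 and 0.340). With the trend on GC content and length of genes removed in each library, both Ndufaf3 and Ndufaf8 were at −0.07, and Ndufaf1 was at −0.25. Without Cre− replicate 3 the median of the group was 0.02, and without Cre+ replicate 1 it was −0.12. Ndufaf6 lay below the filter.

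All 4 subunits of complex II, succinate dehydrogenase, had positive log2 fold changes, with a median of 0.10, and none was called. Complex II is shared with the tricarboxylic acid cycle and is made from nuclear genes alone. Sdha, the flavoprotein that oxidises succinate, was read at 276, 285 and 279.9 CPM in Cre− and 306, 299 and 308 CPM in Cre+ cultures. All Cre+ cultures were above all Cre− cultures, by 0.12 ± 0.04 SE on the log2 scale (edgeR, adjusted p = 0.121). Sdhd, a membrane anchor, also did not overlap, with 189.6, 192 and 196 CPM in Cre− and 205, 198 and 212 CPM in Cre+ cultures (log2 fold change 0.09 ± 0.05 SE, edgeR, adjusted p = 0.297).

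Sdhc, the other anchor, had the largest fold change of the complex. It was read at 147, 154 and 157 CPM in Cre− and 155, 176 and 176 CPM in Cre+ cultures. Cre+ replicate 1 fell inside the Cre− range, and the log2 fold change was 0.15 ± 0.06 SE (edgeR, adjusted p = 0.145). Without that culture it was 0.21 and past the threshold (edgeR, adjusted p = 0.0436). With any other library left out it was 0.12 to 0.16 and not called (edgeR, adjusted p from 0.203 to 0.366). Sdhb, the iron-sulfur subunit, was nearly equal, at 229, 239 and 232 CPM in Cre− and 234, 237 and 241 CPM in Cre+ cultures. The assembly factors Sdhaf2, Sdhaf3 and Sdhaf4 had log2 fold changes of 0.07, 0.07 and 0.07 with adjusted p of 0.570, 0.852 and 0.674 (edgeR). Sdhaf1, which protects the iron-sulfur clusters of Sdhb, was under 0.5 CPM in every library and was not tested. The summed counts of the 4 subunits were 841, 870.5 and 865 CPM in Cre− and 900.1, 910.1 and 937 CPM in Cre+ cultures. Sums that did not overlap between the groups were found here, for cytochrome c and, lower in Cre+, for the complex I assembly factors (126, 129 and 136 CPM in Cre− and 123, 126.1 and 123 CPM in Cre+ cultures).

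In complex III, which passes electrons from ubiquinol to cytochrome c, none of the 9 subunits was called and the median log2 fold change was −0.03. Cyc1, cytochrome c1, had the smallest p of the complex. It was read at 104, 106 and 111 CPM in Cre− and 93.8, 95.1 and 95.3 CPM in Cre+ cultures. All Cre+ cultures were below all Cre− cultures, with a log2 fold change of −0.17 ± 0.05 SE (edgeR, adjusted p = 0.0539). With the GC and length trend removed, this value was −0.01.

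Uqcrc2, a core protein of the complex, had higher values in all Cre+ cultures and was not called, with 102, 105 and 102 CPM in Cre− and 111, 113 and 107 CPM in Cre+ cultures (log2 fold change 0.10 ± 0.05 SE, edgeR, adjusted p = 0.273). The small subunit Uqcrb had a log2 fold change of 0.09 ± 0.06 SE (edgeR, adjusted p = 0.430), with overlapping groups. With the trend on GC content and length removed, Uqcrc2 was at 0.06 and Uqcrb at 0.02, and without Cre− replicate 1 Uqcrb was at 0.05. The highest levels per kilobase were those of the small subunits Uqcr10 (368 CPM per kb in Cre− and 357 in Cre+) and Uqcr11 (309 and 305). Uqcrfs1, the Rieske iron-sulfur protein, was the most variable of the 92 genes between cultures of 1 group. It was read at 40.2, 79.8 and 49.7 CPM in Cre− and 62.9, 42.5 and 56.8 CPM in Cre+ cultures, so that Cre− replicate 2 held the highest and Cre− replicate 1 the lowest value. Its coefficient of variation was 36.6% in Cre− and 19.3% in Cre+ cultures, against medians of 3.67% and 3.44% over the 92 genes and 7.43% and 7.04% over all tested genes.

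Cycs, the mobile electron carrier cytochrome c, which also starts caspase activation once it leaves the mitochondrion, was read at 52.7, 56.5 and 56.0 CPM in Cre− and 63.5, 64.5 and 61.2 CPM in Cre+ cultures. The groups did not overlap. The log2 fold change was 0.20 ± 0.06 SE and missed the threshold (edgeR, adjusted p = 0.0574). It was 0.13 with the trend on GC content and length removed.

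**Figure D2:**
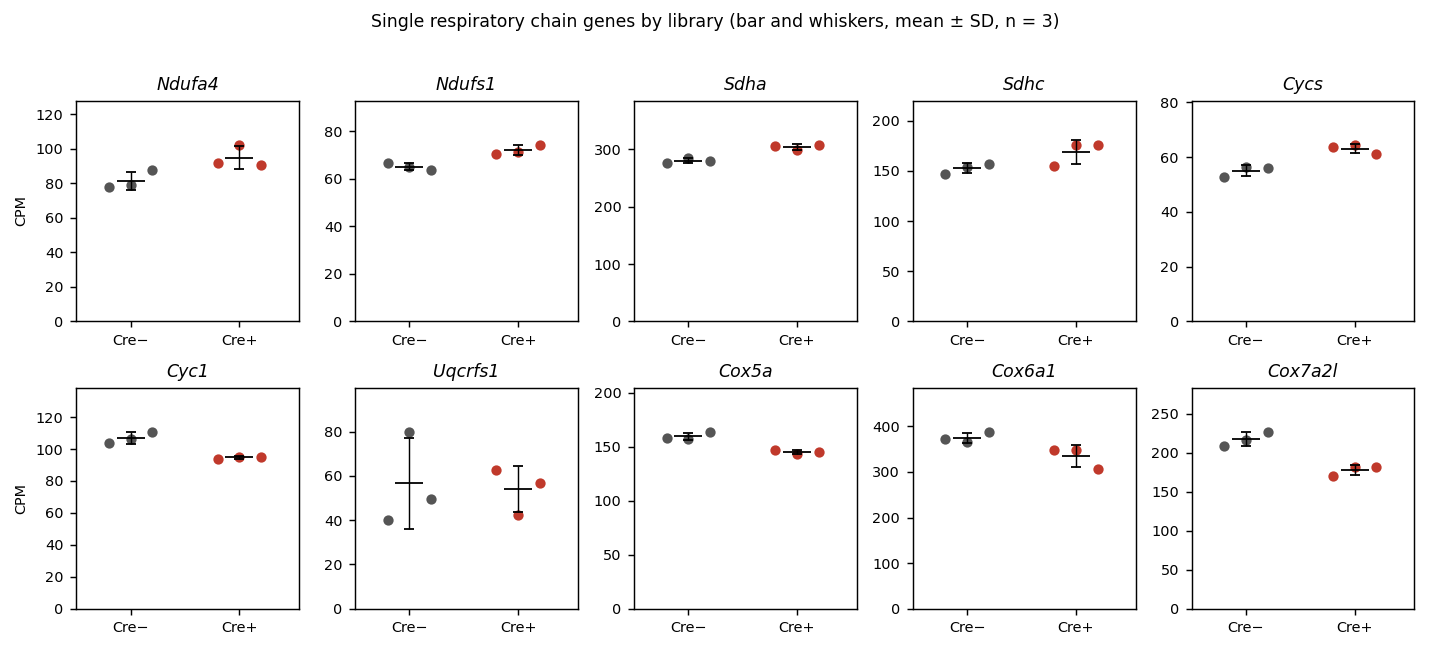
CPM of 10 respiratory chain genes in each library (y axes, CPM from 0; grey, Cre−; red, Cre+; bar and whiskers, mean ± SD, n = 3). Ndufa4, Ndufs1, Sdha and Cycs lie higher and Cyc1, Cox5a, Cox6a1 and Cox7a2l lower in all Cre+ cultures, Sdhc overlaps, and Uqcrfs1 spreads from 40.2 to 79.8 CPM within the Cre− group.

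Complex IV, cytochrome c oxidase, held the 1 called gene. Of its 18 nuclear genes 14 were tested, with a median log2 fold change of −0.03, 6 above and 8 below 0. Ndufa4, with all Cre+ cultures above all Cre− cultures, is counted with complex I and is not among the 14. In 5 of the 14, every Cre+ culture lay below every Cre− culture, and in 0 of them above, beside 11.7% of all tested genes below and 12.3% above. These were Cox7a2l, whose groups overlap once the counts of its near-identical copy Gm6969 are added, Cox6a1, Cox5a, Cox8a and Cox6b2. Cox6a1, the common form of subunit VIa, was read at 371, 365 and 388 CPM in Cre− and 348, 348 and 307 CPM in Cre+ cultures. Cox5a had 158, 158 and 164 CPM in Cre− and 147, 143 and 146 CPM in Cre+ cultures. Cox8a had 279, 282 and 300.02 CPM in Cre− and 265, 268 and 253 CPM in Cre+ cultures.

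Cox5a, Cox6a1 and Cox8a all belong to the nuclear shell around the catalytic core that mitochondrial DNA encodes. Their log2 fold changes were −0.14 ± 0.05 SE, −0.16 ± 0.05 SE and −0.13 ± 0.05 SE, none past the threshold (edgeR, adjusted p = 0.0916, 0.0879 and 0.1203). With the trend on GC content and length removed the 3 values were −0.20, 0.03 and −0.02, and Cox5a was called (edgeR, adjusted p = 0.0287). Without Cre+ replicate 3, Cox6a1 was at −0.10. Cox4i1, the subunit with the highest count of the complex, did not separate the groups, at 693, 688 and 704 CPM in Cre− and 669, 699.98 and 658 CPM in Cre+ cultures.

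Several complex IV subunits exist as isoforms from separate genes, which are known to differ between tissues. In these microglia the common form made up nearly all of the level per kilobase in both groups. Cox6a2, known from heart and skeletal muscle, made up 0.379% to 0.558% of the summed Cox6a level in Cre− and 0.526% to 0.607% in Cre+ libraries. Cox7a1, also known from muscle and heart, made up 3.17% to 3.70% of Cox7a1 plus Cox7a2 in Cre− and 3.11% to 3.61% in Cre+ libraries. Cox6b2, known from testis, made up 0.370% to 0.497% of the Cox6b level in Cre− and 0.271% to 0.355% in Cre+ libraries.

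Cox6b2 had the largest fitted difference of the 92 genes, at a low level. It was read at 1.92, 1.46 and 2.10 CPM in Cre− and 1.09, 1.45 and 1.09 CPM in Cre+ cultures. The groups did not overlap, though Cre− replicate 2 and Cre+ replicate 2 were nearly level, at 1.461 and 1.450 CPM. The log2 fold change was −0.60 ± 0.23 SE and was not called (edgeR, adjusted p = 0.153). Cox4i2, Cox7b2, Cox8b and Cox8c lay below the filter, at no more than 0.224 CPM in any library. Ndufa4l2, a relative of Ndufa4 that is known to rise under hypoxia, was at no more than 0.056 CPM in any library and was also not tested.

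**Figure D3:**
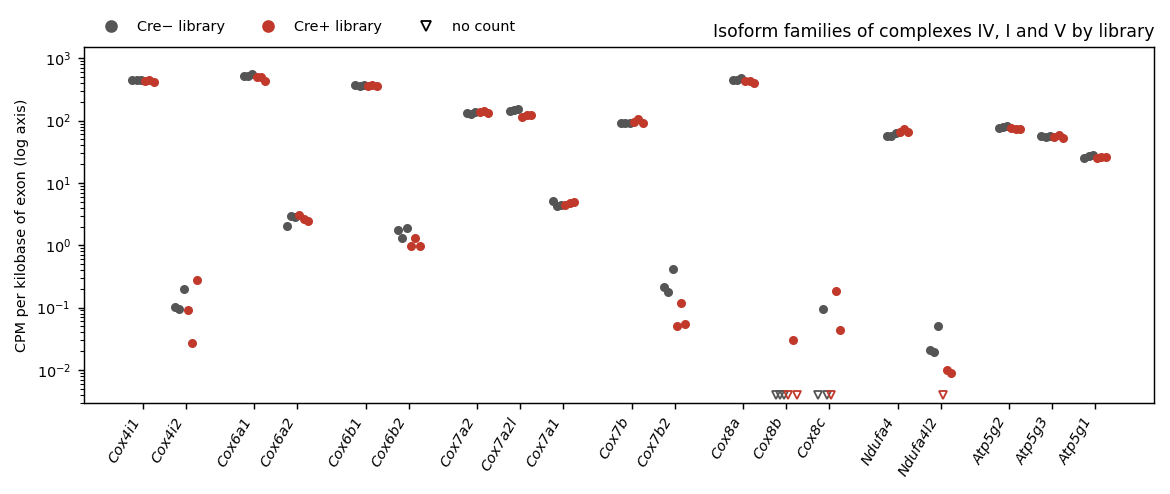
Level of isoform families in each library (y axis, CPM per kilobase of gene length, log axis; grey, Cre−; red, Cre+; open triangles at the lower edge, libraries with no count). The common forms of the Cox and Ndufa4 families lie far above the tissue-restricted forms in all 6 libraries, whereas the 3 Atp5g genes are of similar level.

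Cox7a2l, also called SCAF1, is a relative of the complex IV subunit Cox7a2 that joins complex III and complex IV into a supercomplex. It lies on chromosome 17 at 83501918 to 83517330 on the minus strand of GRCm38. It was read at 209, 217 and 227 CPM in Cre− and 171, 182 and 181 CPM in Cre+ replicates 1 to 3. All 3 Cre+ cultures were below all Cre− cultures. The means were 217 ± 8.8 CPM and 178 ± 6.2 CPM (SD, n = 3), a ratio of 0.818. The log2 fold change was −0.29 ± 0.05 SE (95% interval −0.39 to −0.19, edgeR, adjusted p = 0.00201).

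This value moved with that of a second gene of nearly the same sequence. Gm6969 (ENSMUSG00000066553), annotated as a processed pseudogene on chromosome 12, is an intronless copy of the Cox7a2l coding sequence. It was read at 1.61, 1.75 and 1.50 CPM in Cre− and 42.7, 42.6 and 43.6 CPM in Cre+ cultures. This was a 26.5-fold difference, with a log2 fold change of 4.73 ± 0.09 SE, the highest of the 11429 tested genes (edgeR, adjusted p = 2.9e-14). Gm6969 was chosen for description after its values were seen.

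The mean of Cox7a2l was lower in Cre+ by 39.5 CPM, and that of Gm6969 was higher by 41.4 CPM. Together the 2 genes came to 211, 218 and 228 CPM in Cre− and 213, 224 and 225 CPM in Cre+ cultures. These sums overlapped, with means of 219 ± 8.8 CPM and 221 ± 6.4 CPM (SD, n = 3; exact two-sided permutation test, p = 0.9, where the smallest p for 3 against 3 is 0.1). Gm6969 held 0.657% to 0.803% of the sum in Cre− and 19.0% to 19.998% in Cre+ libraries. With the counts of pseudogene copies added to their parent genes before the fit, the log2 fold change of Cox7a2l was 0.01 ± 0.05 SE (edgeR, adjusted p = 0.930), and 0 of the 92 respiratory chain genes were called lower.

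The coding parts of the 2 genes are nearly identical in the reference. The coding sequence of the reference transcript of Cox7a2l is 336 bases long and Gm6969 is 342 bases long, and the first 213 bases are identical. Gm6969 then holds 6 bases that the Cox7a2l reference lacks, and 1 single-base difference lies further on. The stretch around the 6 bases is shown because it is where the gene and its copy can be told apart, with capitals for the bases absent from Cox7a2l. The Cox7a2l stretch lies at chr17:83502685-83504127 (minus strand, coding bases 174 to 254, over 2 exons) and the Gm6969 stretch at chr12:24638751-24638837 (minus strand), both from GENCODE transcripts on GRCm38.
Cox7a2l: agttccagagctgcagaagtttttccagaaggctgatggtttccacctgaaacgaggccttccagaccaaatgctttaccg
Gm6969: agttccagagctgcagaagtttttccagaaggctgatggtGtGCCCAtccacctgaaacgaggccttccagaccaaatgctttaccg
Inbred mouse strains are known to carry Cox7a2l alleles of different length, and the reference strain carries the shorter. The allele in these 6 cultures was not tested, and the counts do not show which of the 2 genes a read came from.

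**Figure D4:**
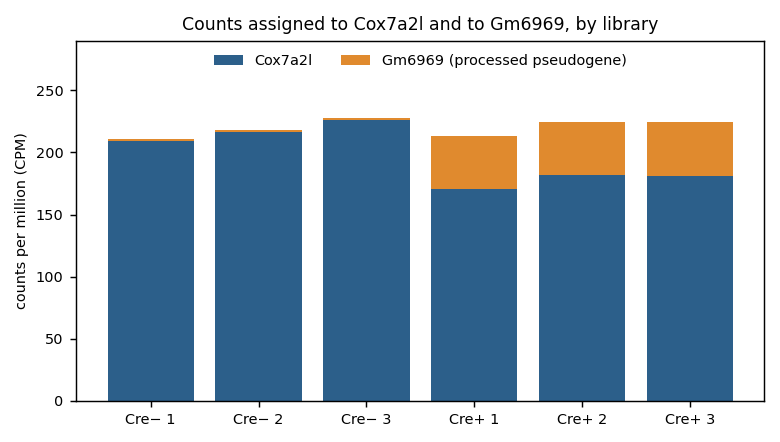
Counts assigned to Cox7a2l (blue) and to its processed pseudogene Gm6969 (orange) in each library, stacked (y axis, CPM from 0). The blue part is lower in the 3 Cre+ libraries, the orange part is visible mainly in them, and the height of the full bars, 211 to 228 CPM in Cre− and 213 to 225 CPM in Cre+ libraries, overlaps.

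Complex V, the ATP synthase, had no called gene among 17 tested, and a median log2 fold change of 0.01 with 9 above and 8 below 0. For 16 of the 17 the 95% interval lay within 1.25-fold. Atp5a1 and Atp5b encode the α and β subunits of the catalytic head. Atp5a1 was read at 468, 465 and 438 CPM in Cre− and 463, 479.5 and 478 CPM in Cre+ cultures, with overlapping groups. Atp5b was read at 447, 478 and 483 CPM in Cre− and 461, 511 and 481 CPM in Cre+ cultures, also overlapping.

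In the central stalk, which couples rotation to catalysis, 2 subunits did not overlap between the groups, in opposite directions. Atp5d, the δ subunit, had 209, 220.3 and 218 CPM in Cre− and 189, 197 and 202 CPM in Cre+ cultures, all Cre+ values being lower (log2 fold change −0.14 ± 0.05 SE, edgeR, adjusted p = 0.103). With the trend on GC content and length removed, Atp5d was at −0.01. Atp5c1, the γ subunit, had 317, 327 and 327 CPM in Cre− and 328, 347 and 333 CPM in Cre+ cultures, all Cre+ values being higher (log2 fold change 0.05 ± 0.04 SE, edgeR, adjusted p = 0.550). Atp5mpl, a small subunit of the membrane part, had a log2 fold change of 0.12 ± 0.07 SE with overlapping groups (edgeR, adjusted p = 0.353). It was at 0.07 without Cre− replicate 2 and at 0.21 without Cre− replicate 3.

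Atp5g1, Atp5g2 and Atp5g3 encode the same mature c subunit of the rotor ring. By level per kilobase Atp5g2 made up 48.7% to 49.3% of the 3 in Cre− and 47.1% to 49.2% in Cre+ libraries. Atp5g3 made up 33.8% to 35.2% and 34.2% to 36.8%, and Atp5g1 16.1% to 17.04% and 16.1% to 16.9%. The order was the same in all 6 libraries, and the shares overlapped between the groups. These shares rest on the deposited gene lengths, 1675 bases for Atp5g2, 2181 for Atp5g3 and 4912 for Atp5g1. Before division by length, the means of Atp5g2, Atp5g3 and Atp5g1 were 134, 122 and 132 CPM in Cre− cultures. In Cre+ cultures they were 127, 120 and 126 CPM. A second annotated Atp5o gene (ENSMUSG00000116933), which shares exons with the first, had no count in any library.

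**Figure D5:**
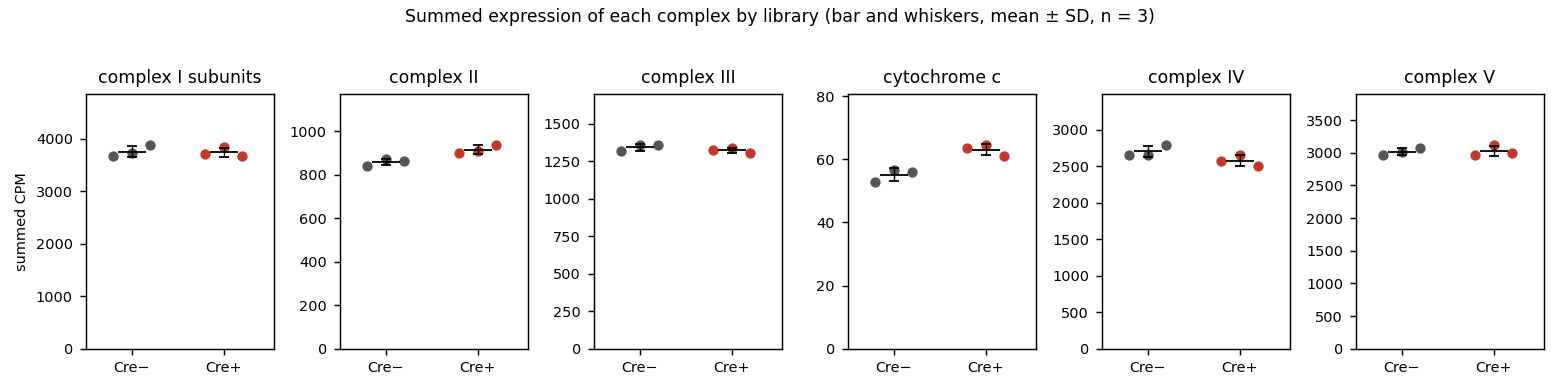
Summed CPM of each complex by library (y axes, CPM from 0; grey, Cre−; red, Cre+; bar and whiskers, mean ± SD, n = 3). The sums of complexes I, III, IV and V overlap between the groups, and those of complex II and of cytochrome c lie higher in all 3 Cre+ libraries.

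Summed over each complex, the levels differed little between the groups. Complex I subunits came to 3758 ± 112 CPM in Cre− and 3740.0 ± 89.4 CPM in Cre+ cultures (SD, n = 3). Complex III came to 1345 ± 23.4 and 1323 ± 19.3 CPM, complex IV to 2705 ± 77.5 and 2579 ± 80.2 CPM, and complex V to 3013 ± 55.5 and 3028 ± 79.2 CPM. The log2 ratios of the Cre+ to the Cre− mean were −0.01 for complex I, −0.02 for complex III, −0.07 for complex IV and 0.01 for complex V, against 0.09 for complex II. The complex IV sum includes Cox7a2l, lower in Cre+ by 39.5 CPM, and leaves out its copy Gm6969, higher by 41.4 CPM. No test was made of these sums.

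Promoter windows, from 250 bases before to 50 bases after the transcription start, were held in RefSeq's GRCm38.p6 table for 81 of the 100 genes, in 86 windows. Letters bound by factors known to act on respiratory chain genes were searched on both strands in these and in all 32817 windows. CCGGAAG, bound by ETS factors such as GABP, was in 24.4% of the windows of the respiratory chain genes and 8.86% of all windows. GCGCATGCG, bound by NRF1, was in 12.8% and 1.75%, and GCCATCTT, bound by YY1, in 12.8% and 2.74%. AGGTCA, the hexamer that REV-ERB and ROR receptors bind, was in 19.8% and 16.3%. TCAAGGTCA, bound by estrogen-related receptors and containing AGGTCA, was in 2.33% and 0.424%, in the windows of Atp5g3 and Sdhd. The median GC content of the windows was 58.7% and 52.7%. These matches describe letters and no binding was measured.

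Of the 3 genes with the smallest p, the Cox7a2l window held none of the 5 motifs, Cyc1 was not in the table, and the Cycs window held the NRF1 motif. That motif was in the windows of 11 of the respiratory chain genes. Besides Cycs, the log2 fold changes of Atp5k, Ndufa11, Ndufa8 and Ndufaf4 were positive. Those of Atp5g2, Atp5l, Cox6a1, Ndufaf5, Uqcr11 and Uqcrc1 were negative. The 250 bases before the Cycs start, at chr6:50566570-50566819 (minus strand), are shown because Cycs is a known NRF1 target, with the motif in capitals.
Cycs: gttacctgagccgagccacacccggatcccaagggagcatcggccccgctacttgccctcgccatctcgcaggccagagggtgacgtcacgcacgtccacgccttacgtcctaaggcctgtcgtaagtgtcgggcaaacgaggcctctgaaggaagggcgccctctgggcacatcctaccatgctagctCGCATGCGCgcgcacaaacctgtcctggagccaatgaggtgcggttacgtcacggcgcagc
Nrf1 itself, the gene of that factor, was read at 19.2, 19.1 and 18.3 CPM in Cre− and 19.3, 20.8 and 18.4 CPM in Cre+ cultures, with overlapping groups.

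Assembly factors and regulators of the chain were taken from lists of their own. None of 10 complex I, 6 complex III, 23 complex IV and 4 complex V assembly factors that were tested was called, with median log2 fold changes of 0.03, −0.06, 0.02 and −0.05. The gene with the smallest p in each list was Tmem126b (0.20, edgeR, adjusted p = 0.0723), Uqcc3 (−0.13, adjusted p = 0.267), Cox11 (0.74, adjusted p = 0.0814) and Fmc1 (−0.30, adjusted p = 0.124). Of 13 regulators of respiratory chain genes, 12 were tested and 0 were called, and Polrmt, the mitochondrial RNA polymerase, had the smallest p (−0.27, edgeR, adjusted p = 0.393). Ppargc1a, the coactivator of mitochondrial biogenesis, lay below the filter, at 0.335 to 0.541 CPM in Cre− and 0.118 to 0.164 CPM in Cre+ libraries.

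The 13 subunits that mitochondrial DNA encodes had 6 genes called higher and 0 called lower. Their median log2 fold change was 0.25, with 9 above and 4 below 0. The groups did not overlap for 7 with higher and 2 with lower values in Cre+, beside 12.3% and 11.7% of all tested genes. The 2 lower were mt-Co1 and mt-Nd4, with log2 fold changes of −0.151 and −0.145 (edgeR, adjusted p = 0.0682 and 0.101). The 6 called higher were mt-Nd1, mt-Nd2, mt-Nd3, mt-Cytb, mt-Co3 and mt-Atp6, with log2 fold changes of 0.50, 0.35, 0.64, 0.18, 0.36 and 0.34 (edgeR, adjusted p from 1.96e-05 to 0.0311). The summed level of the 13 overlapped, at 8282 to 8905 CPM in Cre− and 8320 to 9204 CPM in Cre+ libraries. The difference between the nuclear and the mitochondrial set was not tested. Of 14 tricarboxylic acid cycle enzymes, Idh2 alone was called, lower in Cre+, with 69.6, 74.6 and 76.9 CPM in Cre− and 64.1, 63.2 and 61.0 CPM in Cre+ cultures (log2 fold change −0.23 ± 0.06 SE, edgeR, adjusted p = 0.0256). The median log2 fold change of the 14 was 0.07, with 10 above and 4 below 0. Among them, the groups did not overlap for 5 with higher and 2 with lower values in Cre+. Their summed level was higher in all Cre+ libraries, at 1691 to 1770 CPM in Cre− and 1789 to 1839 CPM in Cre+.

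Pseudogene copies and overlapping genes limit how exactly single respiratory chain genes could be counted. Of the 100 genes, 21 had 40 annotated pseudogene copies with at least 95% identity over 100 bases or more. For 5 of them, Cox7a2l, Atp5g1, Atp5l, Ndufs5 and Uqcrb, the copies held over 10% as many counts as the gene. The counts of Gm10039, a copy of Atp5g1, and Gm2962, a copy of Uqcrb, were 15.5% and 17.7% of the parent's. Overlap with a gene on the opposite strand was widest, among tested members, for Ndufaf2, with 65.6% of its exon bases shared with B230220B15Rik. Among tested subunits it was widest for Ndufb6, with 39.0% shared with Smim27. These neighbours had means of 0.0184 and 2.06 CPM. The strand setting of the counting is not given in the sources used here.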

How the data were processed

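RNA of 6 cultured microglia samples, 3 Cre− and 3 Cre+, was sequenced by the authors. The deposited counts, made by the authors on GRCm38, are raw read numbers for each Ensembl gene. STAR 2.7.9a and featureCounts 2.0.3 are named in the submitters' processing notes, and the study's methods name other versions. The authors' deposited CPM equals the counts over the library total, and the deposited FPKM equals CPM over gene length. All values here were computed from the counts.

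Biotypes and coordinates came from GENCODE M21, which matched 55227 of 55487 genes, and all 100 members at the same start and end. The 356 genes of ribosomal RNA biotypes were dropped, and genes exceeding 1 CPM in 4 or more libraries kept. edgeR 4.0.16 (R 4.3.3) fitted TMM-normalized counts by group, with its quasi-likelihood test and a Benjamini-Hochberg threshold of 0.05. The study's methods used limma's voomWithQualityWeights, which was an alternative here. The common dispersion amounts to a coefficient of variation of 10.0% between cultures. The difference between any 2 libraries exceeded counting noise (chi-square per degree of freedom 13.2 to 18.2 within a group and 35.6 to 57.7 between groups). Standard errors are the log2 fold change over the square root of F. CPM per kb uses the deposited gene length. The pipeline was tested on simulated data.

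Copies were found with blastn 2.17.0+ among the longest transcripts of all genes, and the coding sequences of Cox7a2l and Gm6969 were aligned with edlib 1.3.9.post1. The alternatives tried were library totals, DESeq2's size factors, 2 other filters, removal of ribosomal protein genes, DESeq2 1.42.0, limma 3.58.1 voom with and without quality weights, the replicate number as a block, offsets for GC content and length, copies added to their parents, and leaving out each library.

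The members and lists were chosen with earlier results of these data known. Members named by rule were those called, the 3 smallest p and 2 highest levels per kilobase in each complex (assembly factors counted with their complex), isoform families, complex II, Cycs and members below the filter. Of the other lists, the called genes or else the gene with the smallest p were named. Other members named with values were chosen after the values were seen. Counts and sums cover all members, but the values of 1 tested member are not reported here. Groups of 3 libraries are too small for a test of single libraries as outliers.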

Additional observations from a re-analysis of the deposited data

How the results depend on the processing

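Of 594 alternative values for 33 of the named members, 17 were past the threshold where the main value was not, and 32 had the other sign, in 13 members. Of these 32, 1 belonged to a member called in the main comparison, Cox7a2l with pseudogene copies added, at a log2 fold change of 0.012, where 0 members were called lower. Cox7a2l was called under the other 17 alternatives. Members called higher numbered 2 with library totals (Ndufa4, Cycs), 4 with no filter (with Sdhc and Sdha), 2 with filterByExpr, 2 with the DESeq2 test and 0 to 1 with a library left out. Members called lower numbered 4 with the DESeq2 test (with Cox6a1, Cox5a and Cyc1), 2 with offsets for GC content and length (with Cox5a), with or without the replicate block, and 1 with each library left out. Genes called in all were 1528 with no filter, 886 with the DESeq2 test and 321 to 435 with a library left out, against 579. The lowest were without Cre+ replicate 3 (321), without Cre− replicate 3 (337) and without Cre+ replicate 2 (382).

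With no filter the median of all genes moved to −0.20, and the medians of the members were 0.070 for complex I, 0.035 for its assembly factors, 0.18 for complex II, 0.044 for complex III, 0.27 for Cycs, 0.073 for complex IV and 0.087 for complex V, with a summed log2 ratio of 0.068. With filterByExpr they were 0.15 for complex II and 0.012 for complex IV, with a summed log2 ratio of 0.032. With offsets for GC content and length Cycs was at 0.13, with or without the block. The causes were not tested. Leaving out a library gave medians of −0.03 to 0.02 for complex I, −0.12 to 0.016 for its assembly factors, 0.09 to 0.12 for complex II, −0.04 to −0.02 for complex III, 0.16 to 0.22 for Cycs, −0.06 to −0.01 for complex IV and −0.02 to 0.03 for complex V, and summed log2 ratios of −0.03 to 0.01.

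The replicate numbers did not pair the cultures, since deviations of same-numbered libraries correlated at 0.015, −0.020 and −0.044. With the replicate block 430 genes were called (205 higher and 225 lower), and Cox7a2l alone among the members.

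Whether depth limited the comparison of 3 cultures a group was not tested. Cox6b2, Cox6a2, Cox7a1 and the genes below the filter rest on few CPM. Atp5s, Ndufaf5, Ndufb2 and Sdhaf3 were also low, with Cre− means of 3.79, 5.03, 5.38 and 6.82 CPM.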

Other observations

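A gene outside the respiratory chain, picked after the values were known, ordered the cultures of each group as Uqcrfs1 did. Spi1, the gene of the myeloid transcription factor PU.1, was read at 45.5, 95.03 and 59.8 CPM in Cre− and 69.7, 51.4 and 63.7 CPM in Cre+ replicates 1 to 3, so that its 6 libraries had the same order within each group as those of Uqcrfs1.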
